A study of Mus musculus with 6 samples.

Results

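Chemokines are small secreted proteins that draw leukocytes into tissue, and the chemokine receptors are the G protein-coupled receptors that read them. Genes of this family were taken from the array by name: every gene whose symbol in the files begins with Ccl, Cxcl, Ccr, Cxcr or Ccrl and a digit, together with Cx3cl1, Xcl1 and Cx3cr1. This gave 52 genes of 27962 gene names on the array, represented by 69 of 41174 probes. Each gene was read from its brightest probe.

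Expression was measured in abdominal white adipose tissue (WAT) of female C57/BL6 mice at 30 wk of age. The hNAG-1 mice carry a transgene for human NAG-1, a secreted TGF-beta superfamily protein also known as GDF15, and WT mice are the controls without it. The 6 arrays, 3 per genotype, each held RNA pooled from 2 mice, and 6 mice per genotype contributed. All hNAG-1 mice of the array experiment came from a single transgenic line, so an effect of the insertion cannot be told apart from an effect of the protein, and the diet of these mice is not given in the sources used here. The pools held different mice, so each p-value below rests on how much pools differ. One slide carried the WT arrays together with hNAG-1 replicate 1, and another carried only hNAG-1 replicates 2 and 3. Between 71.2% and 82.0% of the spots on an array were well above background, the 75th percentile of the signal was 657 to 1029, and the arrays correlated with each other at a Pearson r of 0.964 to 0.987 across genes. The adipokine gene Adipoq, a defining marker of adipocytes, was bright in all pools, at 25066 to 31334% of the 75th percentile. In whole tissue, fewer cells of a type and less RNA per cell cannot be told apart.

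In adipose tissue, chemokines are made by macrophages, endothelial cells, fibroblasts and adipocytes themselves, and the CC chemokine Ccl2 with its receptor Ccr2 is known for bringing monocytes into the fat of obese mice. CC and CXC chemokines are named for the spacing of their first cysteines. Inflammatory chemokines are induced in injured or infected tissue, whereas homeostatic ones such as Ccl19, Ccl21 and Cxcl13 are made steadily by lymphoid stroma and position lymphocytes through the receptors Ccr7 and Cxcr5.

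Read from brightest probes, 3 macrophage-associated CC chemokines, Ccl6, Ccl9 and Ccl7, and the platelet chemokine Cxcl7 had less signal in hNAG-1 WAT. They had the smallest unadjusted p-values among family members with less signal than in WT. The receptor Ccr6 and the dendritic cell chemokine Ccl17 had the smallest among members with more signal. When the probes of a gene were averaged, Cxcl12 had the smallest among lower members (unadjusted p = 0.00855 in limma), and Ccl7 was at 0.0736. No member passed an adjusted p of 0.05 over all genes in limma, and 0.322 was the smallest a member reached. Of the 42 members measured well enough to test, 21 had a log2 fold change (hNAG-1 minus WT) above 0 and 21 below 0, and the median was -0.013, against 0.081 for all 21250 genes tested.

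A gene was tested where at least 3 of the 6 arrays had its probe well above background. Of the 52 genes, 36 were well above background on all 6 arrays and 6 more on at least 3 (Xcl1, Ccl3, Ccr10, Cxcl15, Ccr4 and Ccr9). The remaining 10 were not tested. Ccl20, Ccl22, Ccr1, Cxcl2 and Cxcl5 cleared the background on 0 arrays, and Ccl1, Ccl28, Ccr1l1, Ccr8 and Cxcl11 on 1 or 2. The neutrophil attractants Cxcl2 and Cxcl5 and the Ccr6 ligand Ccl20 were thus below what these probes could measure in both genotypes. Signals below are given as scaled signal, the processed signal of the probe as a percent of the 75th percentile of its array, and the scaled signal of 1 gene is not set against that of another because probes differ in brightness. Ccr8, a receptor of regulatory T cells, had a scaled signal of 6.64% on hNAG-1 replicate 3 and of 0.206% to 0.731% on the other arrays.

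At an unadjusted p under 0.05 in limma, 4 of the 42 members were lower in hNAG-1 mice, which is 9.52%, beside 3.64% of all genes tested. At the same threshold 2 were higher, which is 4.76%, beside 9.58% of all genes. The arrays of both genotypes did not overlap for 3 members with less signal (7.14%, against 5.97% of all genes) and for 4 with more signal (9.52%, against 14.9% of all genes). At an adjusted p under 0.05 the background was 0% of all genes, and the smallest adjusted p of any gene was 0.164. When limma was given a trended, robust variance, 160 genes passed the adjusted threshold and no member was among them. An exact permutation test of 3 arrays against 3 cannot go below p = 0.1, two-sided, and 7 members reached that value.

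**Figure D1:**
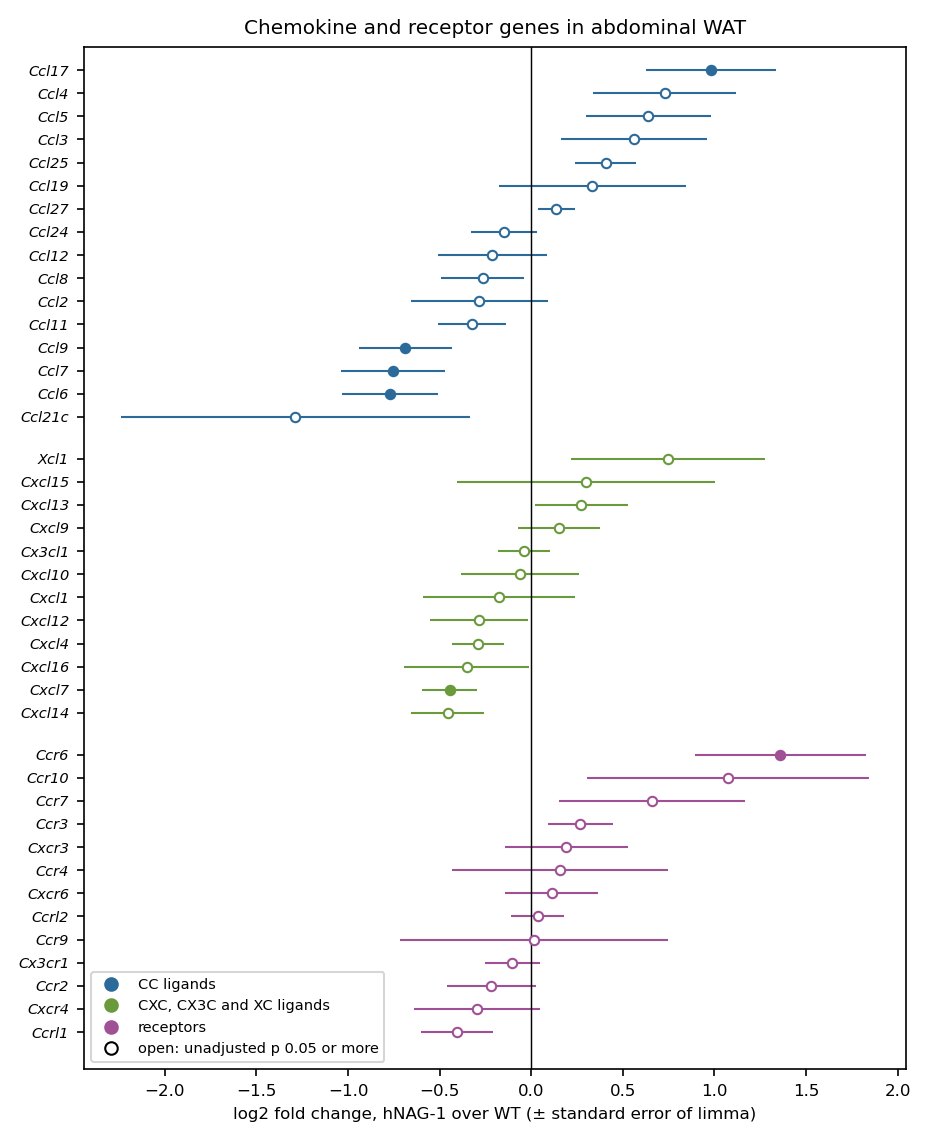
Log2 fold change, hNAG-1 over WT, of 41 tested chemokine and receptor genes on the horizontal axis, with the standard error of limma (3 arrays per genotype) as bars. Genes are grouped into CC ligands, other ligands and receptors, and filled points have an unadjusted p under 0.05. The 16 CC ligands lie between -1.29 and 0.98, the 12 other ligands between -0.46 and 0.75, and the 13 receptors drawn between -0.41 and 1.36.

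Ccl6 and Ccl9, CC chemokines of mice made by macrophages and other myeloid cells that act mainly through Ccr1, had less signal in every hNAG-1 pool than in any WT pool. The scaled signal of Ccl6 was 2335, 1223 and 1548% in WT and 1069.6, 831 and 1005% in hNAG-1 pools. WT replicate 1 stood highest, and the groups did not overlap. The mean was 1702 ± 571% (SD, n = 3 arrays) in WT and 968 ± 123% in hNAG-1 mice, and the log2 fold change was -0.77 (standard error 0.262), which is 1.70-fold lower in hNAG-1 WAT (unadjusted p = 0.0272, adjusted p = 0.328 in limma). For Ccl9 the values were 840, 455 and 489% in WT and 330.5, 372 and 365% in hNAG-1 mice. Here too the groups were apart, with the hNAG-1 pools close together and WT replicate 1 well above the other WT pools. Ccl9 was at -0.69 (standard error 0.254), 1.61-fold lower (unadjusted p = 0.0369, adjusted p = 0.358 in limma).

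The direction of Ccl6 and Ccl9 was negative under every alternative run. Without WT replicate 1 Ccl6 was at -0.52 and Ccl9 at -0.41, both still at an unadjusted p under 0.05 in limma. The unadjusted p of Ccl6 was above 0.05 without WT replicate 3 (0.0541) and without replicate 2 or 3 of hNAG-1 (0.0769 and 0.0593), and that of Ccl9 without hNAG-1 replicate 1, 2 or 3 (0.0943, 0.0651 and 0.0784 in limma). The unadjusted p was also above 0.05 for both with slide as a fixed effect (0.178 for Ccl6 and 0.0975 for Ccl9) and with normexp (0.219 and 0.2). On the slide shared by both genotypes, which held a single hNAG-1 array, Ccl6 was at -0.62 (unadjusted p = 0.217 in limma) and Ccl9 at -0.79 (unadjusted p = 0.139). The probes of Ccl6 (chromosome 11, 83658400 to 83658459) and Ccl9 (chromosome 11, 83644626 to 83644685, both on mouse build mm7) share no run of bases longer than 8, so they read different sequence. Their common receptor Ccr1 cleared the background on 0 arrays.

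The promoters of these neighbouring genes are shown because both had less signal in hNAG-1 WAT. They are the 300 bases around each RefSeq start on build GRCm38.p6, Ccl6 at chr11:83593038-83593337 and Ccl9 at chr11:83578587-83578886, both on the minus strand and written 5′ to 3′. Capitals mark runs of at least 10 bases found in both.
Ccl6: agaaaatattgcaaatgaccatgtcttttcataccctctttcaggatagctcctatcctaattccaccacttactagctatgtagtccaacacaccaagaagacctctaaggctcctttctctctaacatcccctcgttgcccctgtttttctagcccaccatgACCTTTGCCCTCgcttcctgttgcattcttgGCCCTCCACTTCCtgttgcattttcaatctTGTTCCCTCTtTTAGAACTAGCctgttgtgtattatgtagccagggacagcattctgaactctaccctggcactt
Ccl9: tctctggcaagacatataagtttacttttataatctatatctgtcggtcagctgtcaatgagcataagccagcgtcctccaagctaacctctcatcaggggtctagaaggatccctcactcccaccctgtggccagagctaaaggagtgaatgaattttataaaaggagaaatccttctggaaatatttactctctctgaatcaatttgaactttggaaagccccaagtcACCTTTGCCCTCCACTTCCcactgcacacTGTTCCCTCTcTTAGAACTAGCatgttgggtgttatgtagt

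These promoters share 4 such runs, in the same order and nearer together in Ccl9. Among 27025 promoters in the RefSeq table, ACCTTTGCCCTC, GCCCTCCACTTCC and TTAGAACTAGC each occur in 3 (0.0111%), and TGTTCCCTCT in 23 (0.0851%). These counts include Ccl6 and Ccl9, whose shared stretches defined the runs, so they are no test of the sharing. Of the 52 genes, 39 have a promoter in that table. The NF-kappaB motif was found on either strand in 11 of the 39 (28.2%, against 9.55% of all promoters), the AP-1 motif TGANTCA in 9 (23.1%, against 8.97%) and the interferon-stimulated response element in 3 (7.69%, against 3.99%). The Ccl9 promoter holds the NF-kappaB and AP-1 motifs, which do not occur in the Ccl6 window. Such matches describe letters and not binding.

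**Figure D2:**
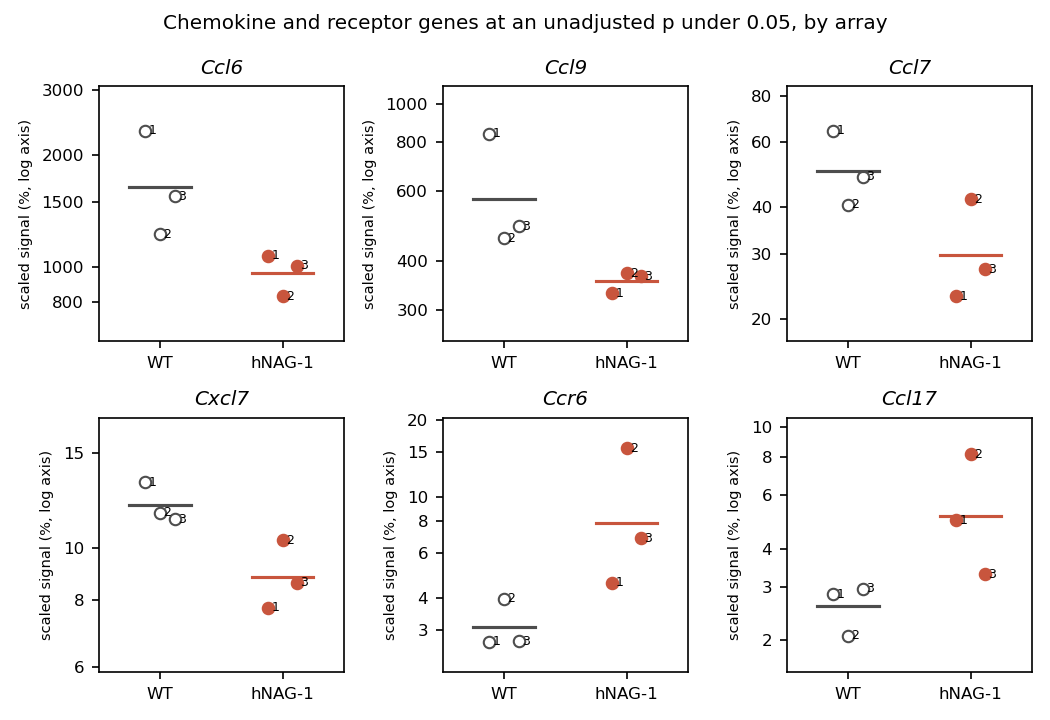
Scaled signal (percent of the 75th percentile of the array, log axis) of the 6 chemokine and receptor genes at an unadjusted p under 0.05, with 1 point per array, numbered by replicate, and lines at the geometric means. Ccl6, Ccl9 and Cxcl7 lie lower on every hNAG-1 array than on any WT array, Ccl7 overlaps between genotypes, and Ccr6 and Ccl17 lie higher on every hNAG-1 array, with replicate 2 highest.

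Ccl7, the monocyte chemoattractant MCP-3 that signals through Ccr2, had a scaled signal of 64.4, 40.7 and 48.3% in WT and of 23.0, 42.1 and 27.2% in hNAG-1 mice. Replicate 2 of the hNAG-1 group lay above WT replicate 2, so the groups overlapped. Ccl7 was at -0.75 (standard error 0.285), 1.69-fold lower (unadjusted p = 0.0398, adjusted p = 0.364 in limma), and its dimmer probe was at -0.58. Without hNAG-1 replicate 2 the log2 fold change was -1.003, and within the slide that held both genotypes it was -1.12. The unadjusted p was above 0.05 without replicate 1 or 3 of WT (0.119 and 0.0788) and without replicate 1 or 3 of hNAG-1 (0.112 and 0.108 in limma).

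Ccl7 lies in a cluster of monocyte and eosinophil chemokine genes on chromosome 11, whose probes span 82118723 to 82198240 on mm7. All 5 tested genes of this cluster had log2 fold changes below 0, and 38.7% of all genes tested did so. Ccl2, the main monocyte chemoattractant MCP-1, was at -0.28 (standard error 0.374), with 91.4, 56.7 and 105.5% in WT and 51.9, 107.7 and 54.3% in hNAG-1 mice. The highest pool was hNAG-1 replicate 2, and the other hNAG-1 pools lay below all WT pools. Ccl8 (MCP-2) was at -0.26 (standard error 0.226) and Ccl12 (MCP-5) at -0.21 (standard error 0.297), although Ccl12 was at 0.089 without WT replicate 1. Ccl11, the eosinophil attractant eotaxin, was at -0.32 (standard error 0.186), with 267, 193 and 222% in WT and 203, 193 and 149% in hNAG-1 mice. The probes of Ccl8 and Ccl12 share a run of 13 bases, the longest between probes of different members. All 5 genes stayed below 0 after quantile normalization, after normexp background correction and within the slide that held both genotypes. Normexp moved the median of all genes to -0.20, and relative to it Ccl11 was only at -0.035 and Ccl8 at -0.0068. All 5 were also below 0 without hNAG-1 replicate 2. That array lay above the hNAG-1 mean for each of them, so leaving it out could only lower them. Ccr2, the receptor of Ccl2, Ccl7, Ccl8 and Ccl12, which marks recruited monocytes, was at -0.22 (standard error 0.243), with WT between 86.2 and 152.6% and hNAG-1 between 83.0 and 111.5%.

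A second cluster on chromosome 11 (probes at 83595699 to 83734514 on mm7) holds Ccl6 and Ccl9 together with Ccl3, Ccl4 and Ccl5, which are made by activated T cells, NK cells and macrophages. Unlike Ccl6 and Ccl9, these 3 had log2 fold changes above 0, and none had an unadjusted p under 0.05. Ccl5 (RANTES) had a scaled signal of 149.6, 97.8 and 183.9% in WT and of 161.5, 317 and 197.9% in hNAG-1 mice, with hNAG-1 replicate 2 far above the rest. Its log2 fold change was 0.64 (standard error 0.341), and 0.36 without that array. Ccl4 (MIP-1 beta) was at 0.73 (standard error 0.391) and Ccl3 (MIP-1 alpha), a dim probe, at 0.56 (standard error 0.399). With normexp, Ccl4 was at -0.34 and Ccl3 at -0.49, with the median of all genes at -0.20.

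Of the remaining CC ligands, Ccl17 (TARC), which dendritic cells make to attract Ccr4-bearing T cells, was measured from a dim probe. Its scaled signal was 2.83, 2.07 and 2.95% in WT and 4.97, 8.17 and 3.30% in hNAG-1 mice, without overlap. The log2 fold change was 0.98 (standard error 0.355), 1.98-fold higher (unadjusted p = 0.034, adjusted p = 0.349 in limma). It was 0.64 without hNAG-1 replicate 2 and -0.24 with normexp, and its unadjusted p was above 0.05 when any 1 array other than hNAG-1 replicate 3 was left out (0.0559 to 0.106 in limma), with quantile normalization (0.0584) and with slide as a fixed effect (0.149). Ccr4, its receptor, was at 0.16 (standard error 0.589), and the other Ccr4 ligand, Ccl22, was below background.

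Ccl25, which attracts thymocytes and gut T cells, had 122, 86.0 and 113% in WT and 128, 145 and 149% in hNAG-1 mice. All hNAG-1 pools were higher, at 0.41 (standard error 0.168, unadjusted p = 0.0544, adjusted p = 0.385 in limma). Its dimmer probes were at -0.11 and -0.011, so the direction came from the brightest probe. Its receptor Ccr9 was at 0.015 (standard error 0.73). Ccl27, a skin-homing chemokine whose current symbol is Ccl27a, did not overlap either, at 87.0, 90.8 and 85.0% in WT and 92.7, 102.1 and 94.5% in hNAG-1 mice. The difference was 0.14 (standard error 0.102). Ccl24, an eosinophil attractant of alternatively activated macrophages, was at -0.15 (standard error 0.18).

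Ccl21c and Ccl19, the Ccr7 ligands of lymphoid stroma, varied more between pools than between genotypes. Ccl21c had 1207, 604 and 145.9% in WT and 471, 173.6 and 89.4% in hNAG-1 mice. The WT range covered all hNAG-1 pools but the lowest, and the log2 fold change was -1.29 with a standard error of 0.951. It was -0.0077 on the slide shared by both genotypes, -0.61 without WT replicate 1, -2.14 (unadjusted p = 0.0448 in limma) without WT replicate 3, and -1.93 and -0.73 when replicates 1 and 3 of hNAG-1 were left out in turn. The mouse genome holds near-identical copies of this gene, so the probe may read several of them. Ccl19 had 70.4, 59.7 and 50.9% in WT and 52.7, 169 and 48.1% in hNAG-1 mice. A single pool, hNAG-1 replicate 2, carried the difference of 0.33 (standard error 0.508), which was -0.25 without it. As a group, the 16 tested CC ligands had a median of -0.18, with 9 below 0 and 7 above, beside 38.7% of all genes below 0. At an unadjusted p under 0.05, 3 were lower (18.8%, beside 3.64% of all genes) and 1 was higher (6.25%, beside 9.58%).

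Of the other ligands, 8 of 12 were below 0, beside 38.7% of all genes tested, and their median was -0.12. Cxcl7, now Ppbp, and Cxcl4, now Pf4, are the chemokines stored in platelet granules and lie side by side on chromosome 5 (probes at 90741218 to 90741277 and 90744523 to 90744582 on mm7). Cxcl7 had 13.2, 11.6 and 11.3% in WT and 7.75, 10.3 and 8.62% in hNAG-1 mice, without overlap. It was 1.36-fold lower at -0.45 (standard error 0.149, unadjusted p = 0.0258, adjusted p = 0.322 in limma). The value was -0.64 on the slide shared by both genotypes, and the unadjusted p was above 0.05 without replicate 1 of WT (0.0836) and without replicate 1 or 3 of hNAG-1 (0.0745 and 0.0728 in limma). Cxcl4 was at -0.29 (standard error 0.143, unadjusted p = 0.0899 in limma), with 1661, 1267 and 1435% in WT and 1189, 1093 and 1272% in hNAG-1 mice. Its groups barely overlapped, hNAG-1 replicate 3 lying just above WT replicate 2.

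Cxcl14, a chemokine of epithelium and adipose tissue, was at -0.46 (standard error 0.199, unadjusted p = 0.0632, adjusted p = 0.4 in limma). Its scaled signal was 202, 142.5 and 181.5% in WT and 153.8, 108.4 and 121.5% in hNAG-1 mice, overlapping at WT replicate 2 and hNAG-1 replicate 1. Cxcl16, the scavenger receptor-like ligand of Cxcr6, was at -0.35 (standard error 0.344), and Cxcr6 at 0.11 (standard error 0.254). The interferon-induced Cxcl9 and Cxcl10, which attract T cells through Cxcr3, were at 0.15 (standard error 0.222) and -0.062 (standard error 0.32). Cxcl10 changed sign when WT replicate 3 or hNAG-1 replicate 1 was left out. Cxcr3 itself was at 0.19 (standard error 0.335), and at -0.075 without hNAG-1 replicate 2. Cxcl13, the B cell attractant, was at 0.27 (standard error 0.252), with the highest value, 119.5%, on hNAG-1 replicate 1. Cx3cl1 (fractalkine) was at -0.04 (standard error 0.142) and its receptor Cx3cr1 at -0.10 (standard error 0.152).

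Cxcl12, the stromal chemokine SDF-1 that holds stem cells and leukocytes in their niches, was read by a pair of probes designed on different transcript records. The brighter probe had 749, 860.0 and 988% in WT and 496, 739 and 962% in hNAG-1 mice. These ranges overlapped, and the log2 fold change was -0.28 (standard error 0.267). It was -0.029 without hNAG-1 replicate 1, -0.18 without WT replicate 3 and -0.51 without hNAG-1 replicate 3, and -0.79 with slide as a fixed effect (unadjusted p = 0.0258 in limma). The dimmer probe had 250.3, 265 and 213% in WT and 134.5, 120.6 and 134.6% in hNAG-1 mice. Every hNAG-1 pool lay far below every WT pool, at -0.90 (standard error 0.129), and in the limma fit of single probes it had the smallest p-values of any probe of the family (unadjusted p = 0.00049, adjusted p = 0.154). Whether the probes read different isoforms of Cxcl12 was not tested. Its receptor Cxcr4 was at -0.30 (standard error 0.345), and its other receptor, named Cmkor1 in the files, at -0.37 (standard error 0.225).

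**Figure D3:**
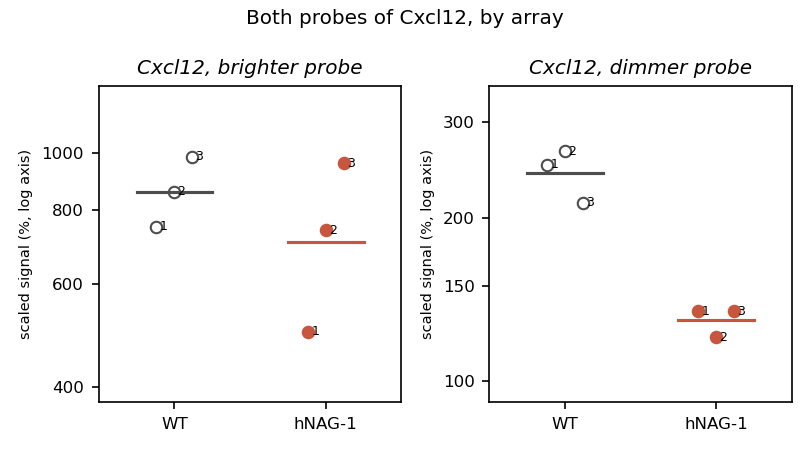
Scaled signal (percent of the 75th percentile of the array, log axis) of both probes of Cxcl12, with 1 point per array, numbered by replicate, and lines at the geometric means. The brighter probe overlaps between genotypes, and the dimmer probe lies at 213% or more in WT and at 134.6% or less in hNAG-1 mice.

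Probes of 1 gene could be compared for 13 members with at least 2 measured probes, which gave 14 pairs of a brightest and a dimmer probe. In 9 pairs both had the same sign. The 5 pairs of opposite sign belonged to Ccl25, which has 2 of them, Ccrl1, Ccrl2 and Cx3cr1. Ccrl1, now Ackr4, is an atypical receptor that scavenges Ccl19, Ccl21 and Ccl25. Its brightest probe was at -0.41 (standard error 0.195, unadjusted p = 0.0846 in limma), with 10.5, 13.3 and 15.1% in WT and 11.7, 8.63 and 8.97% in hNAG-1 mice. A dimmer probe, well above background on 4 arrays, was at 0.91 with its highest value on hNAG-1 replicate 2. Ccrl2, a non-signalling receptor that presents chemerin, was at 0.036 (standard error 0.144).

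Among the receptors, Ccr6, which guides B cells, Th17 cells and dendritic cells toward Ccl20, had a scaled signal of 2.69, 3.98 and 2.70% in WT and 4.59, 15.5 and 6.88% in hNAG-1 mice. All hNAG-1 pools were above all WT pools, and hNAG-1 replicate 2 stood far above the rest. The log2 fold change was 1.36 (standard error 0.468), 2.57-fold higher (unadjusted p = 0.0283, adjusted p = 0.332 in limma). It was 0.87 (unadjusted p = 0.026 in limma) without hNAG-1 replicate 2, 0.58 on the slide shared by both genotypes (unadjusted p = 0.143 in limma; 0.317 with slide as a fixed effect) and 0.032 with normexp (0.97). Its unadjusted p was above 0.05 without replicate 1 or 3 of WT (0.081 and 0.0803) and without replicate 3 of hNAG-1 (0.0537 in limma). Ccr7, which brings T cells and dendritic cells to lymph nodes, followed a like order of pools, with 3.21, 5.92 and 2.96% in WT and 3.38, 11.4 and 5.73% in hNAG-1 mice. It was at 0.66 (standard error 0.507), and at 0.20 without hNAG-1 replicate 2. Ccr3, the eotaxin receptor, was at 0.27 (standard error 0.177). The Ccl27 receptor Ccr10 was well above background on 1 WT and 2 hNAG-1 arrays, at 0.236 to 1.496% in WT and 0.997 to 2.70% in hNAG-1 mice, so its fitted log2 fold change of 1.07 (standard error 0.769) rests partly on values below measurement.

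Of the 14 tested receptors, 10 were above 0 (beside 61.3% of all genes tested) and 4 below, with a median of 0.12. That lean depended on scaling and on a single pool. Relative to the median of all genes 8 were above and 6 below, as with quantile normalization. On the same relative scale 4 were above and 10 below with normexp, and 5 above and 9 below on the slide shared by both genotypes and also without hNAG-1 replicate 2. This pool gave the highest value of all 6 arrays for 18 of the 42 tested members and for 8 of the 14 receptors. The share of all genes tested that were highest in this pool was not computed. These counts therefore cannot be read as a trait of the family.

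**Figure D4:**
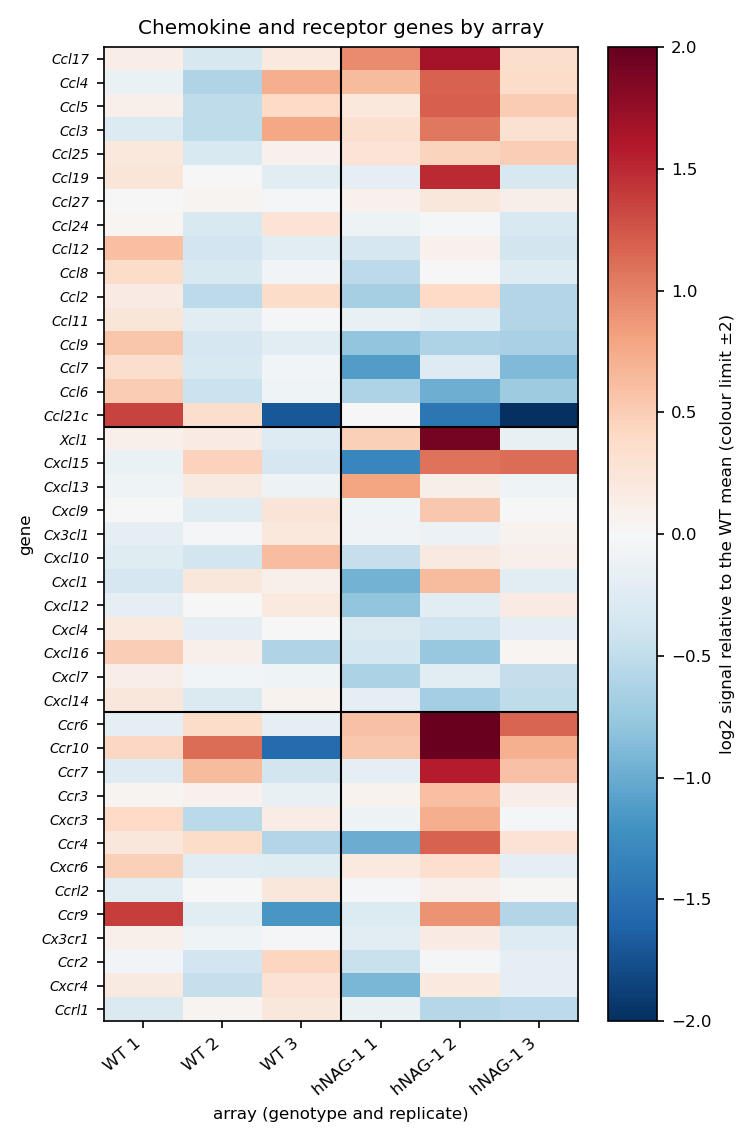
Log2 signal of 41 tested chemokine and receptor genes on each array with the WT mean set to 0, with colours limited at 2 in either direction and horizontal lines between CC ligands, other ligands and receptors. The column of hNAG-1 replicate 2 is the highest of the 6 for 17 of these genes, and the share over all genes was not computed. Ccl6, Ccl9 and Cxcl7 are below the WT mean on all 3 hNAG-1 arrays, as are other genes such as Ccl7, Ccl8, Ccl11 and Cxcl14.

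Summed markers of lymphocytes were highest on hNAG-1 replicate 2. The summed scaled signal of 12 T cell markers, of which 11 were tested, was 263 to 309% in WT and 297, 510.0 and 274% in hNAG-1 replicates 1, 2 and 3. B cell markers, of which 11 were tested, summed to 526 to 588% in WT and to 586, 1040.0 and 549.9% in hNAG-1 mice. For 8 NK cell markers, of which 7 were tested, the sums were 44.8 to 70.2% in WT and 61.4, 116 and 59.6% in hNAG-1 mice. Replicate 2 was thus above every other pool for each of these lists, and their median log2 fold changes were 0.49, 0.49 and 0.46, with no gene at an unadjusted p under 0.05. Skeletal muscle markers were highest in the same pool, summing to 30746% there and to 4120 to 19869% on the other arrays. The T cell gene Cd3g had 21.2% on that array and 6.51 to 12.5% on the others. Cd8b1, the brightest tested T cell marker, did not stand out there, with 144.3% on that array and 137.7 to 178.8% on the others. The part of these cells, or of muscle, in the values of Ccr6, Ccr7, Ccl5, Ccl19 and Xcl1 was not tested. Xcl1, a chemokine of NK and CD8 T cells, was at 0.75 (standard error 0.53), with 6.04% on hNAG-1 replicate 2 and 1.33 to 2.22% elsewhere.

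**Figure D5:**
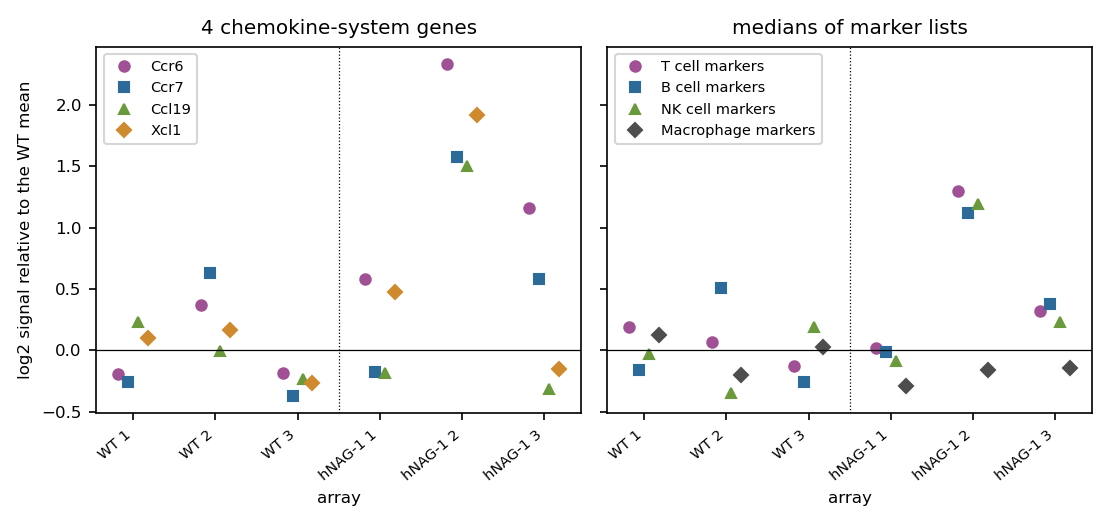
Log2 signal on each array with the WT mean set to 0, for Ccr6, Ccr7, Ccl19 and Xcl1 (left) and as medians of the T cell, B cell, NK cell and macrophage marker lists (right). On hNAG-1 replicate 2 the 3 lymphocyte lists and all 4 genes lie more than 1 above the WT mean, and the macrophage list lies at -0.16.

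Macrophage markers lay mostly below 0 (13 of 15 tested, beside 38.7% of all genes), with a median of -0.20. At an unadjusted p under 0.05 in limma 3 were lower (20%, beside 3.64% of all genes). These were Itgam at -0.35, Cd68 at -0.42 and the scavenger receptor gene Cd163 at -0.82 (adjusted p = 0.303, 0.305 and 0.337). The macrophage list summed to 12800 to 16214% in WT and 13553 to 14077% in hNAG-1 mice, of which the lysozyme gene Lyzs made up 69.8 to 81.0%. The other 14 markers summed to 4897, 3378 and 3610% in WT and 3206, 2571 and 3410% in hNAG-1 mice, which overlapped at WT replicate 2 and hNAG-1 replicate 3. The pan-macrophage gene Emr1 (F4/80) was at -0.24 (standard error 0.165). Of 5 mast cell markers 3 were lower at an unadjusted p under 0.05 (60%, beside 3.64% of all genes). These were the mast cell protease genes Mcpt4, Cma1 and Cpa3 at -0.67, -0.60 and -0.47 (adjusted p = 0.206, 0.22 and 0.318 in limma). The other mast cell markers, Kit and Ms4a2, were above 0, at 0.19 and 0.34. Mast cell sums were 516 to 627% in WT and 368 to 435% in hNAG-1 mice. The part of macrophage or mast cell number in the values of Ccl6, Ccl9 and Ccl7 was not tested.

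Sums of other markers also differed between pools. For the counts that follow, 9.58% of all genes tested were higher and 3.64% lower at an unadjusted p under 0.05 in limma. Of 6 tested neutrophil markers, 1 was higher (S100a9 at 1.23) and 1 lower (Retnlg at -0.40) at an unadjusted p under 0.05, and the list summed to 58.0 to 72.7% in WT and 59.4 to 146% in hNAG-1 mice. Dendritic cell markers (6 tested) had 1 higher gene, the integrin gene Itgae, at 1.16 (adjusted p = 0.167 in limma). Lymph node stroma markers, which include Ccl19, Ccl21c and Cxcl13 themselves, had no gene at that threshold among 8. Fibroblast and endothelial lists each had 1 lower gene, Col1a1 at -0.60 among 10 and Vwf at -0.35 among 9. Of 9 smooth muscle and pericyte markers 1 was higher (Cspg4 at 1.02) and 1 lower (Acta2 at -1.77), and their sum ran from 7194 to 38893% in WT and from 7106 to 10141% in hNAG-1 mice. Of 10 adipocyte markers 2 were higher, Retn at 0.66 and Fabp4 at 0.41. The largest change of that list went the other way, Lep at -0.80 (standard error 0.425, unadjusted p = 0.11 in limma), without overlap between genotypes. Mesothelial (8 tested), skeletal muscle (8), exocrine pancreas (7), erythroid (3) and reproductive tract markers (7) had none at that threshold, although the pancreas sum was 398 to 2711% in WT against 497 to 542% in hNAG-1 mice. None of these genes passed an adjusted p of 0.05.

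Partners in the chemokine system that the naming rule left out were described from a list of 10 tested genes, of which 5 were above 0 and 5 below, with a median of 0.010. At an unadjusted p under 0.05, 1 was lower (10%, beside 3.64% of all genes). This was Rarres2, which encodes chemerin, an adipokine that attracts macrophages and dendritic cells. It had 5331, 5777 and 6403% in WT and 3701, 3716 and 3716% in hNAG-1 mice, without overlap, and was at -0.65 (standard error 0.113, unadjusted p = 0.00138, adjusted p = 0.179 in limma). Its receptor Cmklr1 was at 0.38 (standard error 0.297). Il8rb, the neutrophil receptor Cxcr2, was at 0.68 (standard error 0.648) and highest on hNAG-1 replicate 2, Blr1, the Cxcl13 receptor Cxcr5, at 0.19 (standard error 0.302) and Xcr1, the Xcl1 receptor, at 0.14 (standard error 0.393). The atypical receptors that clear chemokines from blood and lymph, Darc and Ccbp2, were at -0.016 (standard error 0.135) and -0.21 (standard error 0.3).

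Among 30 tested genes that carry the signal behind chemokine receptors, the median was -0.035, and at an unadjusted p under 0.05 in limma 3 were higher (10%, beside 9.58% of all genes) and 2 lower (6.67%, beside 3.64%). The share of higher genes was thus near that of all genes. Adrbk2, a G protein-coupled receptor kinase, was at 0.94 (standard error 0.152, adjusted p = 0.168). Rgs16, which shuts off G protein signalling, was at 1.21 (standard error 0.324, adjusted p = 0.257), with 31.9, 42.3 and 26.5% in WT and 112, 75.8 and 52.4% in hNAG-1 mice. The G protein subunit genes Gnb1 and Gng2 were at 0.37 and -0.44, and the Rac activator gene Tiam1 at -0.60. Of 28 tested genes for cytokines and transcription factors that induce chemokines, the median was 0.034 and 1 was lower (3.57%, beside 3.64% of all genes). It was Jun, a subunit of AP-1, at -0.70 (standard error 0.198, adjusted p = 0.269 in limma), with 200.5, 158.6 and 155.2% in WT and 100.3, 87.7 and 131.7% in hNAG-1 mice.

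Ligands were also set beside their receptors, with no test of a pair. The Ccr2 ligands Ccl2, Ccl7, Ccl8 and Ccl12 and Ccr2 itself were all below 0, as were Cxcl12 and Cxcr4, and Cx3cl1 and Cx3cr1. Signs were opposite for Cxcl16 (-0.35) and Cxcr6 (0.11), Ccl11 (-0.32) and Ccr3 (0.27), Ccl21c (-1.29) and Ccr7 (0.66), Cxcl10 (-0.062) and Cxcr3 (0.19), and Rarres2 (-0.65) and Cmklr1 (0.38), while Ccl19 and Ccr7, Ccl17 and Ccr4, Ccl25 and Ccr9, and Cxcl9 and Cxcr3 were above 0. Of these genes Ccl7, Ccl17 and Rarres2 had an unadjusted p under 0.05.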

How the data were processed

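Per the submitters' processing notes, arrays were read with Agilent Feature Extraction 9.5, and the deposited intensity of each spot was background-subtracted by that software and not normalized between arrays. The value tables equal that processed signal in all 45018 rows, within a relative tolerance of 1e-05. The paper's methods name an Affymetrix array; the files are from Agilent arrays. Control and outlier spots were dropped, repeated spots averaged, and log2 signal taken minus each array's 75th percentile. Two-sided moderated tests between genotypes came from limma 3.58.1 (lmFit, eBayes; R 4.3.3), adjusted by Benjamini-Hochberg across all 21250 genes; the script was tested on simulated data. Positions are those of the array design. Symbols and promoters came from RefSeq tables (GRCm38.p6), in which 49 of the 52 genes were matched by record and 3 by symbol. The family and all lists were chosen with earlier results of these data known. Described genes were the 12 of smallest p, the 8 brightest, those without overlap, their partners and the atypical receptors; in other lists, up to 3 of smallest p. Further genes (Ccr8, Adipoq, Cd3g, Emr1, Xcl1, Cxcl13, Cxcl16, Cxcr6, Cx3cl1, Cx3cr1, Gng2, Tiam1 and partners outside the family) were added after their values were seen. So were Cd8b1, Kit, Ms4a2 and Lep. The number of arrays limits the precision. Alternatives were quantile normalization, normexp (offset 50), other detection filters, other handling of probes, a trended and robust variance, slide and replicate blocks, the value table, and each array left out. Slide and scan coincide. The replicate numbers were not treated as pairs in the main fit. Deviations of same-numbered arrays correlated at 0.0971, 0.511 and 0.0908, and those of differently numbered arrays at -0.419 to 0.336. With 3 arrays per genotype these values cannot settle whether the pools were paired. Counts cover the whole family; the values of 1 member are not reported here.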

Additional observations from a re-analysis of the deposited data

How the results depend on the processing

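No member passed an adjusted p of 0.05 under any of the 18 alternatives. The 4 lower and 2 higher members at an unadjusted p under 0.05 became 5 and 1 with quantile normalization, 1 and 0 with normexp, 4 and 4 with no filter on detection, 4 and 1 with slide as a fixed effect (lower Ccl7, Cxcl7, Cxcl12 and Cxcl15, higher Cxcl13, so that Ccl6, Ccl9, Ccr6 and Ccl17 were lost), 5 and 2 on the slide shared by both genotypes alone, where a single hNAG-1 array is assumed to vary like the WT arrays, and 0 to 6 lower and 1 to 2 higher with single arrays left out; no member was lower without hNAG-1 replicate 3, 2 without hNAG-1 replicate 2 and 6 without WT replicate 2, and 1 was higher without WT replicate 1 or 2 or hNAG-1 replicate 2 or 3. The replicate number as a block gave 3 lower (Ccl6, Ccl21c and Cxcl14) and 2 higher (Ccr6 and Ccr7). The median of the members was -0.27 with normexp, which moved the median of all genes to -0.20, and -0.16 with slide as a fixed effect, -0.19 to 0.066 with single arrays left out. Of 691 values of the 41 members given singly, 58 changed sign, 14 of them with normexp and 44 elsewhere, and 18 of these members never did. Relative to the median of all genes with normexp, Ccrl2 was at 0.0054 and Cxcr6 at 0.052. The other members that changed sign with normexp kept the changed sign on that relative scale, such as Ccr9 at -0.36 and Ccl3 at -0.29. Some of them lay close to 0, such as Ccl17 at -0.045, Cxcr3 at -0.0053 and Ccr7 at -0.00035. The log2 fold changes of the main fit were not set relative to their median of all genes, 0.081. Ccr9 and Ccrl2, at 0.015 and 0.036, were already below that median.

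With normexp the log2 fold change was -0.24 for Ccl17, 0.0057 for Ccl24, -0.49 for Ccl3, -0.34 for Ccl4, -0.34 for Ccr10, -0.28 for Ccr3, -0.39 for Ccr4, -0.20 for Ccr7, -0.56 for Ccr9, -0.19 for Ccrl2, -0.56 for Cxcl15, -0.20 for Cxcr3, -0.14 for Cxcr6 and -0.32 for Xcl1. On the shared slide alone, as with slide as a fixed effect, it was -0.18 for Ccl19, -0.99 for Ccr4, -0.18 for Ccr7, -0.27 for Ccr9, -0.019 for Ccrl2, -1.31 for Cxcl15, -0.094 for Cxcl9 and -0.11 for Cxcr3. Quantile normalization gave -0.022 for Ccr4 and -0.20 for Ccr9, slide as a random block -0.00058 for Ccr9, and the mean of a gene's probes 0.25 for Ccrl1, -0.073 for Ccrl2 and 0.29 for Cx3cr1. Leaving out single arrays gave -0.40 to 0.089 for Ccl12, -0.25 to 0.66 for Ccl19, -0.35 to 0.73 for Ccr4, -0.56 to 0.71 for Ccr9, -0.070 to 0.15 for Ccrl2, -0.13 to 0.066 for Cx3cl1, -0.58 to 0.21 for Cxcl1, -0.25 to 0.24 for Cxcl10, -0.11 to 1.10 for Cxcl15, -0.039 to 0.28 for Cxcl9, -0.078 to 0.39 for Cxcr3, -0.54 to 0.0098 for Cxcr4 and -0.011 to 0.35 for Cxcr6. The cause was not tested. Dim probes such as those of Ccl17, Ccr6 and Xcl1 lay near the lowest scaled signal that was well above background. This limits what can be read from dim ligands and receptors. That lowest signal was 0.897 to 1.18% on the slide shared by both genotypes. It was 1.60 and 1.54% on hNAG-1 replicates 2 and 3, so it differed with slide and in part with genotype.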
